A study of Mus musculus with 9 samples.

Results

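The 10 genes described here encode the enzymes that place methyl groups on lysine 4 of histone H3 (H3K4), a pair of subunits these enzymes share, and the enzymes that take methyl groups off lysine 27 of histone H3 (H3K27). They were chosen by symbol, as *Kmt2a*, *Kmt2b*, *Kmt2c*, *Kmt2d*, *Setd1a*, *Setd1b*, *Wdr5*, *Ash2l*, *Kdm6a*, and *Kdm6b*, and all 10 were found among the 25239 gene symbols counted. RNA-seq had been performed on mouse E14 embryonic stem cells (ESCs, strain label 12910la) of 3 genotypes, with 3 libraries per genotype and 9 in all. The control was Rbbp4+/+, and the others were Rbbp4 Ins/Ins, with a short in-frame insertion on both alleles of *Rbbp4*, and Rbbp4 Ins/Del, with this insertion on 1 allele and an in-frame deletion on the other. Both mutants were made by CRISPR-Cas9 in E14 cells, each is a single clone, and all lines were grown in medium with serum and leukemia inhibitory factor. A change caused by the mutation and a difference that a clone had by chance cannot be told apart within 1 mutant line. Transfection, puromycin selection, and cloning were common to both mutants, and the methods do not describe them for the control. Effects of these steps cannot be told apart from those of the mutations in either line. The mutants differ from each other both in 1 allele and in the clone.

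Methylation of H3K4 marks promoters and enhancers of active or poised genes, and methylation of H3K27, which PRC2 places, marks repressed genes. Each of the methyltransferases works with a shared core of WDR5, ASH2L, RBBP5, and DPY30. SETD1A and SETD1B are held to supply most trimethylation of H3K4 at promoters, KMT2A and KMT2B act with Menin at promoters of developmental genes, and KMT2C and KMT2D monomethylate H3K4 at enhancers, in complexes that also hold the H3K27 demethylase KDM6A. Promoters that carry both marks, called bivalent, are typical of ESCs, and RBBP4, the protein mutated here, is a subunit of PRC2 and of histone deacetylase complexes.

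The start of 6 of the 10 genes was present in a RefSeq promoter set of GRCm38.p6 (the mm10 build), each covering 250 bases before to 50 after the gene start. Shown are *Kmt2c* and *Wdr5*, whose counts were higher in both mutants, and *Kdm6a*, whose counts were lower. They are printed 5' to 3' on the strand of the gene, and capitals mark CG, the dinucleotide bound by the CXXC domains of KMT2A, KMT2B, and the SETD1 partner CXXC1.
Kmt2c (chr5:25498734-25499033, minus strand): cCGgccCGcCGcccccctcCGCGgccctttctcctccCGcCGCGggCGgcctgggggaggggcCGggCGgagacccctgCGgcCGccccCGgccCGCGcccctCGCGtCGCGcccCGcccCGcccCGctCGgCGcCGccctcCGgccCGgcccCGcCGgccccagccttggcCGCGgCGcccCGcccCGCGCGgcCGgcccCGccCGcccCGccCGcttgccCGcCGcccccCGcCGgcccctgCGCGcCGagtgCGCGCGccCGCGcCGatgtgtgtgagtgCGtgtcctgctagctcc
Wdr5 (chr2:27514897-27515196, plus strand): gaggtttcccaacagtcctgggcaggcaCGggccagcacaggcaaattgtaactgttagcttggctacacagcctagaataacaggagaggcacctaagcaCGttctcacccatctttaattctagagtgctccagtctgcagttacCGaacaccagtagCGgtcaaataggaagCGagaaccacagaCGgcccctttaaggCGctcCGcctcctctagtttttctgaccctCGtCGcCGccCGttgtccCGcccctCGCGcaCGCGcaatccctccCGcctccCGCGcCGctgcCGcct
Kdm6a (chrX:18162325-18162624, plus strand): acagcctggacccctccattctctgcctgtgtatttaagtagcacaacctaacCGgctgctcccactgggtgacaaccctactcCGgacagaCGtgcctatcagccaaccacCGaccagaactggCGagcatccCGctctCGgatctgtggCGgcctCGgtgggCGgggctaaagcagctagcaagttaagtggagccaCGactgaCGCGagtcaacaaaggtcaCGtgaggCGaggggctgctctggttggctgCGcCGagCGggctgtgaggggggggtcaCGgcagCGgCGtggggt
CG occurred 56 times in the *Kmt2c* promoter, 22 times in that of *Wdr5*, and 21 times in that of *Kdm6a*. The 3 promoters not printed belong to genes that did not pass in the main fit, which used all libraries and left out low-count genes. There CG occurred 36 (*Kmt2a*), 35 (*Setd1a*), and 27 (*Kmt2d*) times, each more than in *Wdr5* or *Kdm6a*. These counts stand against a median of 7 over all 32851 promoters of this length, of which 94.6% held at least 1. This set was not limited to expressed genes. The share of its promoters with as many CG or fewer was 76.9% for *Kdm6a*, 78.5% for *Wdr5*, and 85.8% for *Kmt2d*. It was 93.8% for *Setd1a*, 94.4% for *Kmt2a*, and 99.85% for *Kmt2c*. The GC box GGGCGG, searched on both strands and containing CG, occurred 12 times in the *Kmt2c* promoter, 2 times in that of *Wdr5*, 1 time in that of *Kdm6a*, 5 times in that of *Kmt2a*, 4 times in that of *Kmt2d*, and not in that of *Setd1a*, and 35.7% of all promoters held it. The E-box CACGTG, which also contains CG and reads the same on both strands, occurred 1 time in the *Kdm6a* promoter and in 7.15% of all promoters. CCAAT, searched on both strands and found in 37.4% of all promoters, was in none of the 6. These are matches of letters, and binding was not measured here.

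The libraries held between 15838064 and 21366868 counted reads, of which 1.40% to 2.60% belonged to *Rn45s*, a precursor of ribosomal RNA. Counts were normalized for library size with the TMM method of edgeR and scaled to the mean library, so that a normalized count is close to a read count. *Rbbp4* had 9932, 9965, and 10117 normalized counts in the control, 5485, 5551, and 5776 in Ins/Ins, and 10129, 10344, and 10603 in Ins/Del. Against the control this was a log2 value of -0.84 for Ins/Ins (adjusted p = 1.8e-25) and of 0.05 for Ins/Del (adjusted p = 0.107). These are RNA values, while the study reported lower levels of the mutant RBBP4 proteins by Western blot. All 5 ESC markers (*Pou5f1*, *Nanog*, *Sox2*, *Zfp42*, *Esrrb*) were detected in every line, and their summed normalized count was 50741 to 53968 in the control, 64459 to 65289.8 in Ins/Ins, and 65823 to 67949 in Ins/Del. *Zfp42*, *Esrrb*, and *Nanog* rose in both mutants, while *Pou5f1* had log2 fold changes of -0.12 (adjusted p = 0.0002) and -0.03 (adjusted p = 0.303). Markers of other cell types also differed between the lines, and within most lists members went opposite ways, so that the sums hide changes. The 5 fibroblast markers (*Col1a1*, *Col1a2*, *Col3a1*, *Thy1*, *Postn*) all passed 3 reads in the control, with sums of 575 to 670.4, and 3 of them did in each mutant, with 253 to 282 in Ins/Ins and 338 to 362 in Ins/Del. In the mutants these sums were mostly *Thy1*, with means of 45.7 normalized counts in the control, 246 in Ins/Ins, and 312 in Ins/Del, while *Col1a1* went from 287 to 17.0 and 24.4 and *Col3a1* from 31.3 to 0.705 and 0.982. The 5 neural markers (*Pax6*, *Sox1*, *Neurog2*, *Tubb3*, *Map2*), of which 4 passed 3 reads in every line, summed to 1607 to 1748, 1238 to 1331, and 1577 in the 3 lines, with *Neurog2* at 0 in every Ins/Del library. Within this list *Pax6* went from a mean of 678 to 73.6 and 30.1 and *Map2* from 399 to 113 and 95.1, while *Tubb3* went from 472 to 967 and 1295. Primitive endoderm markers (*Gata4*, *Gata6*, *Sox17*, *Foxa2*, *Sox7*), all above 3 reads in each line, summed to 93.1 to 107, 99.4 to 141, and 161 to 198, with *Gata4* lower (log2 fold changes of -1.56 and -1.05) and *Sox7* higher (1.63 and 2.22) in both mutants. Trophoblast markers (*Cdx2*, *Elf5*, *Tfap2c*, *Krt7*, *Hand1*), of which 4, 3, and 5 passed 3 reads, summed to 1436 to 1490.1, 1820.4 to 1921, and 1103 to 1196. Most of this was *Tfap2c*, with means of 1259.6, 1763, and 1086, while *Cdx2* went from 30.1 to 2.40 and 2.49 and *Krt7* from 149 to 82.2 and 50.4. Mesoderm markers (*T*, *Mesp1*, *Eomes*, *Mixl1*, *Kdr*), of which 4, 3, and 3 passed 3 reads, summed to 271 to 302, 378 to 409.6, and 369 to 388, with *Mesp1* at 0 in every control library. *Eomes*, with means of 193, 322, and 271, and *Kdr*, with 44.6, 54.1, and 92.0, made up most of it, while *T* went from 44.6 to 2.34 and 0.301. The part of these cells in the results that follow was not tested, and in bulk RNA fewer cells of a type and less RNA per cell cannot be told apart.

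The 10 genes fell into 3 sets. *Wdr5*, *Ash2l*, and *Kmt2c* rose in both mutants by 34.4% to 59.9%, *Kdm6a* and *Kdm6b* fell in both, with changes from -13.9% to -10.1%, and *Kmt2a*, *Kmt2b*, *Kmt2d*, *Setd1a*, and *Setd1b* did not pass the adjusted p-value limit of 0.01 in either. In Ins/Ins against control, 3 of the 10 were higher and 2 lower, while among all 14125 tested genes 58.4% were called, 29.0% higher and 29.4% lower, by the quasi-likelihood test of edgeR (Benjamini-Hochberg adjusted). In Ins/Del against control the counts were again 3 higher and 2 lower, where 62.5% of all tested genes were called, 30.6% higher and 31.9% lower. In each comparison the share of the 10 genes called was below that of all tested genes. Their median log2 fold change was 0.04 in Ins/Ins and 0.03 in Ins/Del, against 0.004 and -0.01 over all tested genes. Both comparisons share the 3 control libraries. Nothing in the labels says whether libraries of a line came from separate cultures, so all p-values measure the spread between libraries, which may be technical.

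**Figure D1:**
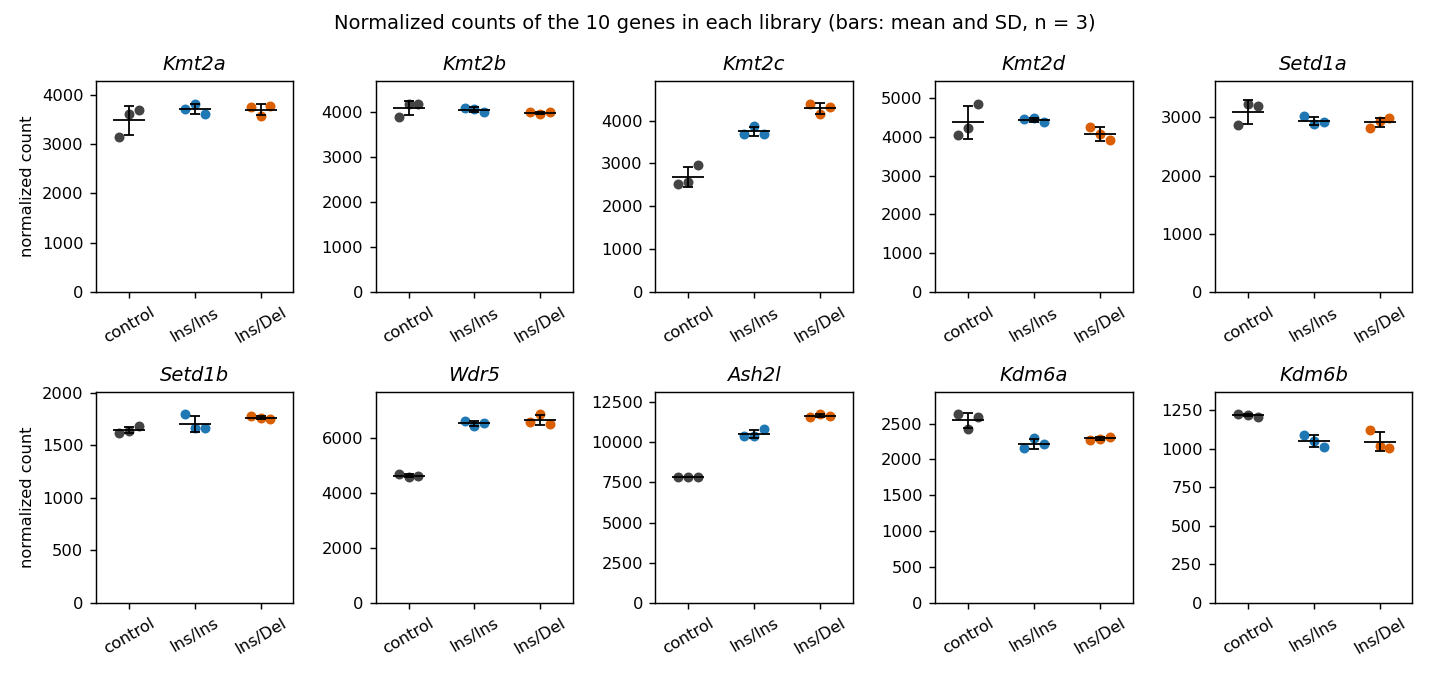
Normalized counts (vertical axes, from 0) of the 10 genes in each of the 9 libraries, grouped by line on the horizontal axes, where points are libraries and bars give the mean and SD of 3 libraries. *Kmt2c*, *Wdr5*, and *Ash2l* lie higher and *Kdm6a* and *Kdm6b* lower in all mutant libraries than in all control libraries.

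Transcripts of the core subunits WDR5 and ASH2L, which the methyltransferase complexes share, rose in both mutants. Activity of these complexes was not measured here. *Wdr5* (chromosome 2, 27515157 to 27536535, plus strand of mm10) encodes a scaffold that binds the catalytic subunits. Its normalized counts were 4679, 4593, and 4598 in the control, 6602, 6447, and 6527 in Ins/Ins, and 6591, 6855, and 6514 in Ins/Del. Every mutant library lay above every control library, while the mutants overlapped. In Ins/Ins the log2 fold change was 0.50, with a standard error of 0.029 (adjusted p = 6.9e-18), and in Ins/Del it was 0.53, with the same error (adjusted p = 9.6e-19). Between the mutants *Wdr5* did not pass the limit, with a log2 difference of 0.03 and a 95% interval from -0.03 to 0.09 (adjusted p = 0.552).

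*Ash2l* (chromosome 8, 25815996 to 25847694, minus strand) encodes the subunit that, with RBBP5, stimulates the SET domain of the enzymes. Its normalized counts were 7814, 7844, and 7841 in the control, 10375, 10399, and 10821 in Ins/Ins, and 11576, 11732, and 11658 in Ins/Del. The 3 lines did not overlap, with the control lowest and Ins/Del highest. *Ash2l* rose by 0.43 on the log2 scale in Ins/Ins (adjusted p = 6.5e-17, standard error 0.027) and by 0.57 in Ins/Del (adjusted p = 4.3e-21, standard error 0.027). It was also higher in Ins/Del than in Ins/Ins, by a log2 difference of 0.15 (95% interval 0.09 to 0.20, adjusted p = 9.3e-05).

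Of the other members of the shared core, *Rbbp5* passed in both mutants and *Dpy30* in neither. *Rbbp5* had 1477, 1449.8, and 1456 normalized counts in the control, 1815, 1899, and 1985 in Ins/Ins, and 1909, 1934, and 1817 in Ins/Del. It rose by 0.38 (adjusted p = 1.6e-10) and 0.37 (adjusted p = 2.1e-10) on the log2 scale in the 2 mutants. *Dpy30*, whose product binds ASH2L, did not pass the limit in either mutant, with log2 fold changes of -0.01 (95% interval -0.09 to 0.07) and 0.09 (0.01 to 0.17). Without control replicate 1 it passed in Ins/Del, at 0.14 (adjusted p = 0.0023). The difference between the responses of *Rbbp5* and *Dpy30* was not tested.

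*Kmt2c* (chromosome 5, 25271798 to 25498783, minus strand) encodes one of the enhancer-associated methyltransferases. It was the only one of the 6 methyltransferase genes past the limit in the main fit. Its control libraries held 2527, 2569.6, and 2953 normalized counts, those of Ins/Ins 3690.0, 3871, and 3684, and those of Ins/Del 4393, 4149, and 4313. None of the 3 lines overlapped another. The log2 fold change was 0.48 in Ins/Ins (adjusted p = 1.6e-13, standard error 0.040) and 0.68 in Ins/Del (adjusted p = 4.5e-18, standard error 0.040). The latter, a rise of 59.9%, was the largest change among the 10 genes in these comparisons. A larger absolute log2 fold change than that of *Kmt2c* was found for 35.2% of all tested genes in Ins/Ins and 28.8% in Ins/Del. *Kmt2c* was higher in Ins/Del than in Ins/Ins by a log2 difference of 0.19 (95% interval 0.11 to 0.27, adjusted p = 0.00032).

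*Kmt2d* (chromosome 15, 98831669 to 98871204, minus strand), its closest relative, did not pass in either mutant. Its normalized counts were 4049.8, 4216, and 4849 in the control, 4466, 4472, and 4372 in Ins/Ins, and 4252, 4061, and 3903 in Ins/Del. The control libraries spread widely, and both mutants overlapped them. The log2 fold change was 0.02 in Ins/Ins (95% interval -0.06 to 0.11, adjusted p = 0.622) and -0.10 in Ins/Del (-0.18 to -0.02, adjusted p = 0.0298). Single control libraries decided these calls. Without control replicate 3 the value in Ins/Ins was 0.11 (adjusted p = 0.0053), and without control replicate 1 it turned to -0.03 in Ins/Ins and passed in Ins/Del at -0.15 (adjusted p = 0.001). The latter also passed when all genes with a read were kept (adjusted p = 0.009). Each Ins/Del library lay below each Ins/Ins library, with a log2 difference of -0.12 (adjusted p = 0.0302) that did not pass in the main fit of all 9 libraries. It passed without control replicate 3 (adjusted p = 0.0044). It also passed when only the 6 mutant libraries were fitted, at -0.12 (adjusted p = 0.0026), and when all genes with a read were kept, at -0.13 (adjusted p = 0.0026).

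*Kmt2a* (chromosome 9, 44803355 to 44881296, minus strand) and *Kmt2b* (chromosome 7, 30568858 to 30588726, minus strand) encode the Menin-associated enzymes. *Kmt2a* had 3143, 3612, and 3682 normalized counts in the control, 3713, 3819, and 3606 in Ins/Ins, and 3754, 3569, and 3775 in Ins/Del. The first control library stood below the other 8 libraries, and the remaining libraries overlapped. The log2 fold changes of 0.10 (95% interval 0.02 to 0.18, adjusted p = 0.0316) and 0.09 (0.01 to 0.17, adjusted p = 0.0416) did not pass in the main fit. They passed in both mutants without control replicate 2, at 0.14 and 0.13 (adjusted p = 0.0057 and 0.0073), and without control replicate 3, at 0.15 and 0.14 (adjusted p = 0.0019 and 0.0025). In Ins/Ins the value also passed when all genes with a read were kept, at 0.10 (adjusted p = 0.0071).

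*Kmt2b* had 3899, 4170.2, and 4186 normalized counts in the control, 4099.7, 4069, and 3999 in Ins/Ins, and 3994, 3962, and 4006 in Ins/Del. All mutant libraries lay within the range of the control libraries. The 95% intervals of its log2 fold change were -0.07 to 0.06 in Ins/Ins and -0.10 to 0.03 in Ins/Del, so a change of the size seen in *Kmt2c* lies outside them. *Kmt2b* did not pass in any of the 3 comparisons under the 16 alternatives tried.

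*Setd1a* (chromosome 7, 127776670 to 127800122, plus strand) and *Setd1b* (chromosome 5, 123142193 to 123168629, plus strand) encode the enzymes of the SET1 complexes. *Setd1a* held 2861, 3236, and 3203 normalized counts in the control, 3016, 2879.8, and 2921 in Ins/Ins, and 2819, 2936, and 2984 in Ins/Del. Both mutants overlapped the control, whose first library was low. The log2 fold changes were -0.07 (95% interval -0.15 to 0.004) and -0.09 (-0.16 to -0.01), with adjusted p = 0.0867 and 0.0394, and without control replicate 1 they passed at -0.13 (adjusted p = 0.0027) and -0.14 (adjusted p = 0.00084). Control replicate 1 was also the lowest control library for *Kmt2a*, *Kmt2b*, *Kmt2c*, *Kmt2d*, *Setd1b*, and *Ash2l*, and the highest for *Wdr5*, *Kdm6a*, and *Kdm6b*. Calls of several genes that change when it is left out are therefore not independent of each other. In GENCODE M21 the gene *Gm49388* covers 51.9% of the exonic length of *Setd1a* on the same strand. This symbol is not among those counted, so under this name it took no reads from *Setd1a*.

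*Setd1b* had 1622, 1640.4, and 1684 normalized counts in the control, 1796, 1666, and 1662 in Ins/Ins, and 1781, 1759, and 1753 in Ins/Del. Ins/Del lay above the control in all libraries and Ins/Ins overlapped both. The log2 fold change was 0.05 in Ins/Ins (95% interval -0.03 to 0.13) and 0.10 in Ins/Del (0.02 to 0.18, adjusted p = 0.0249). The value in Ins/Del passed without Ins/Ins replicate 1 (adjusted p = 0.0087) and when only control and Ins/Del were fitted (adjusted p = 0.0099), at 0.11 in each. Among all 10 genes, the libraries did not overlap between Ins/Ins and control in 5, against 69.1% of tested genes. Between Ins/Del and control they did not overlap in 6, *Setd1b* being the sixth, against 72.8% of tested genes.

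**Figure D2:**
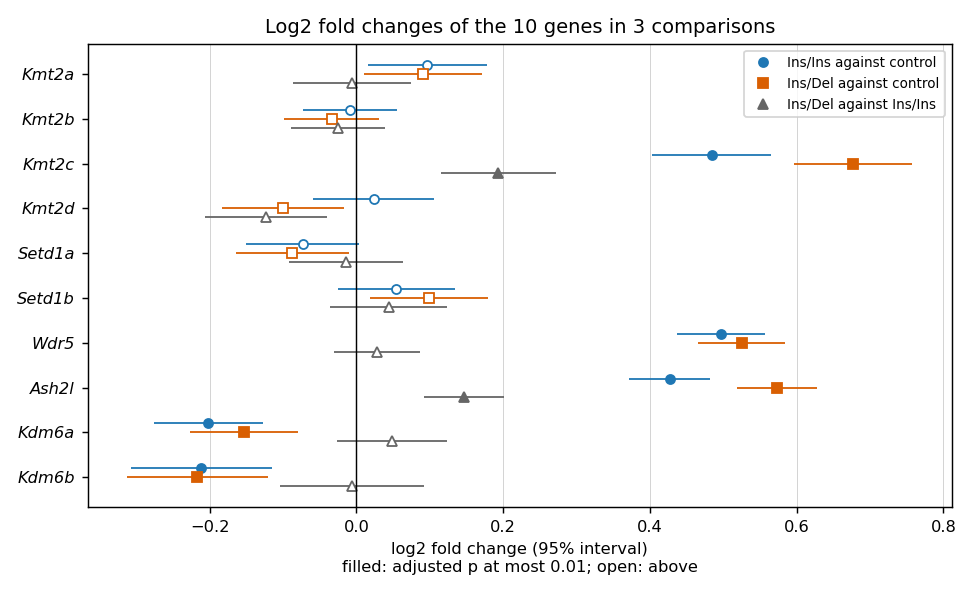
Log2 fold changes (horizontal axis, with 95% intervals) of the 10 genes in Ins/Ins against control, Ins/Del against control, and Ins/Del against Ins/Ins, where filled symbols passed the adjusted p-value limit of 0.01. *Kmt2c*, *Wdr5*, and *Ash2l* lie between 0.43 and 0.68 against the control, and *Kdm6a* and *Kdm6b* between -0.22 and -0.15.

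The H3K27 demethylases fell in both mutants. *Kdm6a* (chromosome X, 18162575 to 18279936, plus strand), the demethylase found in the KMT2C and KMT2D complexes, had 2629, 2430.2, and 2586 normalized counts in the control, 2154, 2296, and 2210.5 in Ins/Ins, and 2276, 2290.0, and 2315 in Ins/Del. Every mutant library was below every control library, and the mutants overlapped. The log2 fold change was -0.20 in Ins/Ins (adjusted p = 7.6e-06, standard error 0.036) and -0.15 in Ins/Del (adjusted p = 0.0003, standard error 0.036). *Kdm6a* passed in each mutant under all 16 alternatives, with values between -0.22 and -0.13.

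*Kdm6b* (chromosome 11, 69398508 to 69413675, minus strand), the demethylase known for induction by signals, had 1223, 1218, and 1209 normalized counts in the control. Ins/Ins had 1087, 1051, and 1013, and Ins/Del had 1121, 1015, and 1005. The control libraries lay close together and above all mutant libraries. *Kdm6b* fell by 0.21 on the log2 scale in Ins/Ins (adjusted p = 0.00017, standard error 0.047) and by 0.22 in Ins/Del (adjusted p = 0.00011, standard error 0.047). Neither demethylase differed between the mutants at the limit. The 95% intervals of that difference were -0.03 to 0.12 for *Kdm6a* and -0.10 to 0.09 for *Kdm6b*. In Ins/Ins, 61.7% of all tested genes had a larger absolute change than *Kdm6b* and 63.1% a larger one than *Kdm6a*. In Ins/Del these shares were 64.5% and 73.4%.

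*Uty*, the Y-linked relative of *Kdm6a* whose product has little demethylase activity, had 1044, 879, and 1065 normalized counts in the control, 742, 846, and 861 in Ins/Ins, and 693, 807, and 758 in Ins/Del. It fell by 0.29 (adjusted p = 9.4e-05) and 0.40 (adjusted p = 6.4e-07) on the log2 scale, and all mutant libraries were below all control libraries. *Kdm6a* and *Uty* have similar coding sequences, so reads that match both could have been lost or split in counting.

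Between the mutant lines directly, 2 of the 10 genes were called, *Kmt2c* and *Ash2l*, both higher in Ins/Del, where 10.8% of all tested genes were called, 6.17% higher and 4.64% lower. The libraries of the mutants did not overlap in 3 of the 10 genes, the third being *Kmt2d*, against 34.1% of tested genes. For the 8 genes not called the 95% interval of the difference lay within -0.21 and 0.12 on the log2 scale.

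**Figure D3:**
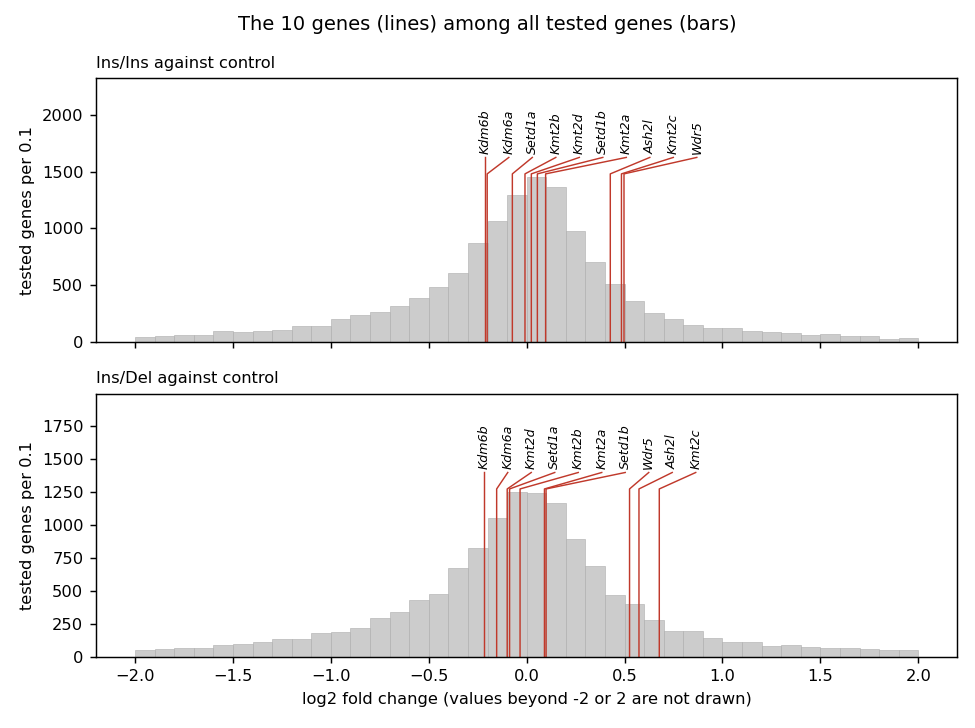
Numbers of tested genes (vertical axes) by log2 fold change against the control (horizontal axis, in steps of 0.1), with the 10 genes marked by lines, for Ins/Ins above and Ins/Del below. Values beyond -2 or 2 are not drawn, and 15.6% of genes had a higher value than *Kmt2c* in Ins/Ins and 12.9% in Ins/Del.

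Per kilobase of the longest protein-coding transcript and scaled to library size (RPKM), *Ash2l* and *Wdr5* stood above the other 8 genes. In the control, *Ash2l* was at 129.8 ± 0.282 (SD, n = 3) and *Wdr5* at 87.7 ± 0.906. *Kmt2b* (26.4 ± 1.04), *Setd1a* (26.2 ± 1.75), and *Kdm6a* (23.5 ± 0.969) came next, and the ranges of neighbours in this group overlapped. *Kmt2d* (12.1 ± 1.17) and *Kmt2a* (11.6 ± 0.977) also overlapped each other, and *Setd1b* (10.2 ± 0.198), *Kdm6b* (10.02 ± 0.0565), and *Kmt2c* (9.83 ± 0.862) were last without separate ranges. *Kmt2c*, lowest of the 10 in the control, took the sixth place in both mutants, at 13.7 ± 0.387 in Ins/Ins and 15.7 ± 0.456 in Ins/Del. There it lay above *Kmt2a*, which had 12.4 ± 0.354 and 12.3 ± 0.378, and above *Kmt2d*, which had 12.3 ± 0.156 and 11.3 ± 0.483. These ranges were separate from that of *Kmt2c* in both mutants. *Kdm6b* was last in both, at 8.65 ± 0.309 and 8.62 ± 0.53. These orders depend on the length used. With all annotated exons merged, *Wdr5* (70.5) stood above *Ash2l* (47.9) in the control. *Kmt2c* was then eighth in Ins/Ins, below *Kmt2a* and *Kmt2d*, and seventh in Ins/Del, where its range overlapped those of *Kmt2a* and *Kmt2d*.

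**Figure D4:**
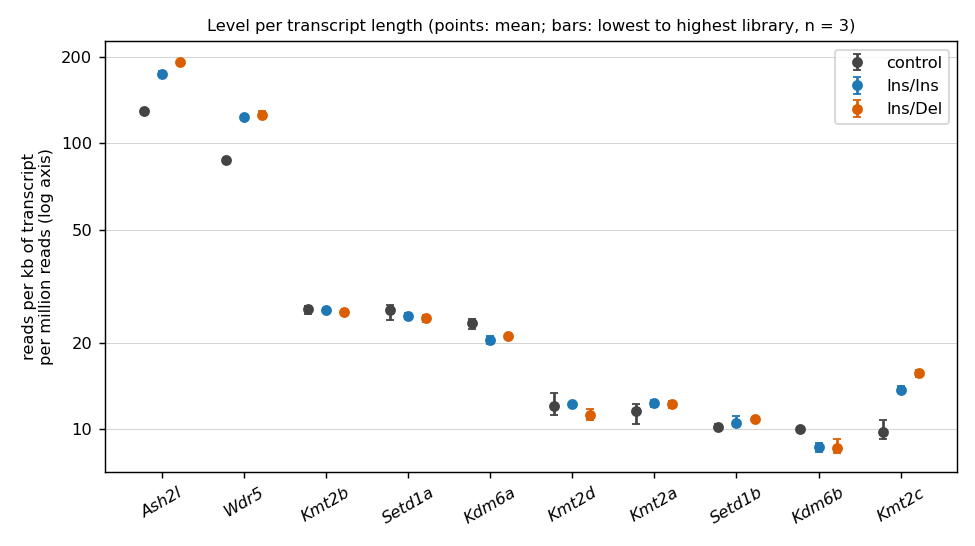
Level of each gene in reads per kilobase of the longest protein-coding transcript and scaled to library size (RPKM, vertical log axis) for the 3 lines, ordered by the control, where points are means and bars span the lowest to the highest of 3 libraries. *Ash2l* and *Wdr5* lie at 87.1 or above and the other 8 genes at 27.3 or below in every library, and *Kmt2c* moves from the last place in the control to the sixth in both mutants.

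Of the 13 other subunits of these complexes, Ins/Ins had 4 called higher and 2 called lower, while Ins/Del had 4 and 3. Of all tested genes 58.4% and 62.5% were called, a larger share in both comparisons. The subunits had a median log2 fold change of 0.05 and 0.06, against 0.004 and -0.01 over all tested genes. *Rbbp5*, *Psip1*, and *Hcfc2* rose and *Paxip1* and *Bod1l* fell in both mutants, while *Dpy30*, *Men1*, *Pagr1a*, *Ncoa6*, and *Bod1* passed in neither. *Hcfc2*, a relative of the shared partner *Hcfc1*, had few reads, at 85.7 ± 15.3 (SD, n = 3) normalized counts for the control, 135 ± 13.5 in Ins/Ins, and 165 ± 29.7 in Ins/Del. Its log2 fold change was 0.64 (adjusted p = 0.00017) and 0.93 (adjusted p = 1.7e-07). *Bod1l*, a partner of SETD1A, fell by 0.21 (adjusted p = 1.2e-05) and 0.20 (adjusted p = 2.8e-05) on the log2 scale. *Paxip1*, which belongs to the KMT2C and KMT2D complexes, fell by 0.13 (adjusted p = 0.0043) and 0.21 (adjusted p = 1.6e-05). Its call in Ins/Ins was lost with DESeq2 (adjusted p = 0.0126) and without any 1 of the 3 control libraries or of Ins/Ins replicates 2 and 3 (adjusted p between 0.0104 and 0.0265). *Wdr82*, a subunit of the SET1 complexes, passed in Ins/Ins, at 0.12 (adjusted p = 0.00047), and *Hcfc1* and *Cxxc1* passed in Ins/Del, at 0.08 (adjusted p = 0.0054) and -0.14 (adjusted p = 0.0091). The difference between the mutants did not pass for these 3 genes. The call of *Cxxc1*, the CpG-binding subunit of the SET1 complexes, was lost without any 1 of the 9 libraries (adjusted p between 0.0101 and 0.0445) and with DESeq2 (0.0465). That of *Hcfc1* was lost without control replicate 1 (0.0136) or 2 (0.0113) and without Ins/Del replicate 1 (0.0311) or 2 (0.0119) and with total-count scaling (0.0209). *Psip1* lost its call in Ins/Ins without Ins/Ins replicate 2 (adjusted p = 0.0163). Its log2 fold changes were small, at 0.10 and 0.13. On the opposite strand, 9.50% of its exonic length overlaps the counted gene *Snapc3*, which had at most 938 reads in a library. In GENCODE M21, *Pagr1a* shares 98.7% of its exonic length with *Gm42742* on the same strand, a symbol not among those counted.

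Of the 6 H3K4 demethylases, *Kdm5b* and *Kdm5d* were higher and *Kdm5a* and *Kdm5c* lower in both mutants, a share near the 58.4% and 62.5% of all tested genes called. *Kdm5b*, which removes methyl groups from trimethylated H3K4, averaged 15183 ± 247 (SD, n = 3) normalized counts for the control, 20722 ± 229 in Ins/Ins, and 19564 ± 294 in Ins/Del, a log2 fold change of 0.45 (adjusted p = 2.3e-18) and 0.37 (adjusted p = 1.0e-15). *Kdm5c* fell by 0.12 (adjusted p = 0.00042) and 0.20 (adjusted p = 2.4e-07) on the log2 scale. *Kdm5a* fell by 0.13 (adjusted p = 0.0029) and 0.20 (adjusted p = 7.9e-06), and its call in Ins/Ins was lost without control replicate 1 (0.0351) or 3 (0.0158) or Ins/Ins replicate 1 (0.0288) or 3 (0.0222). *Kdm5d* had only 4 to 6 reads per control library and 13 to 29 per mutant library, so its log2 fold changes of 1.87 (adjusted p = 0.00033) and 2.18 (adjusted p = 2.0e-05) have wide intervals, from 0.97 to 2.76 and from 1.32 to 3.04. *Kdm1a* and *Kdm1b* did not pass in the main fit. On the opposite strand, 9.19% of the exonic length of *Kdm1b* overlaps *Dek*, a counted gene with at most 8962 reads in a library. *Kdm1a* in Ins/Del, at 0.08 (adjusted p = 0.0102), passed without control replicate 2 (0.0031), Ins/Ins replicate 1 (0.0035), or Ins/Del replicate 1 (0.007). It also passed with DESeq2 (0.0039), with its size factors (0.0052), and with only the groups compared (0.0047).

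Among 4 other SET domain genes linked to H3K4, *Setd7* fell from 1740.4 ± 71.8 (SD, n = 3) normalized counts for the control to 969 ± 43.7 in Ins/Ins and 902 ± 1.34 in Ins/Del, by 0.85 (adjusted p = 2.1e-19) and 0.95 (adjusted p = 6.4e-21) on the log2 scale. *Kmt2e*, whose product is related to the KMT2 family but is not known as an active H3K4 methyltransferase, fell by 0.64 (adjusted p = 9.8e-13) and 0.90 (adjusted p = 8.7e-17), and 9.31% of its exonic length overlaps *Srpk2* on the opposite strand. *Prdm9*, the meiotic H3K4 methyltransferase, had 24.5 ± 2.44 normalized counts in the control, 51.8 ± 5.53 in Ins/Ins, and 50.6 ± 11.3 in Ins/Del, with log2 fold changes of 1.09 (adjusted p = 4.1e-05) and 1.04 (adjusted p = 8.7e-05). *Smyd3* rose in Ins/Ins by 0.39 (adjusted p = 1.4e-07) and had 0.13 in Ins/Del (adjusted p = 0.0413).

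*Magohb*, a gene known to need KMT2B for its expression in ESCs, had 349, 341, and 299.9 normalized counts in the control, 154, 179, and 161 in Ins/Ins, and 128, 125, and 126 in Ins/Del. It fell in both, with log2 fold changes of -1.01 (adjusted p = 1.9e-12) and -1.39 (adjusted p = 8.1e-16). The RNA of *Kmt2b* had the narrow intervals around 0 given above. KMT2B protein and its binding were not measured here, and any part of KMT2B in the fall of *Magohb* was not tested. *Magohb* has a close relative, *Magoh*, so its reads may have been lost or split in counting. In GENCODE M21 it also shares 30.2% of its exonic length with the processed pseudogene *Gm44958*, a symbol not among those counted. Of the PRC2 genes that encode the opposing H3K27 methyltransferase, *Eed* and *Suz12* rose in both mutants, by 0.51 and 0.66 and by 0.16 and 0.11 on the log2 scale (adjusted p between 5.5e-22 and 0.00057), and *Ezh1* and *Ezh2* did not pass against the control in either. These comparisons come from the same edgeR quasi-likelihood fit with Benjamini-Hochberg adjustment.

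**Figure D5:**
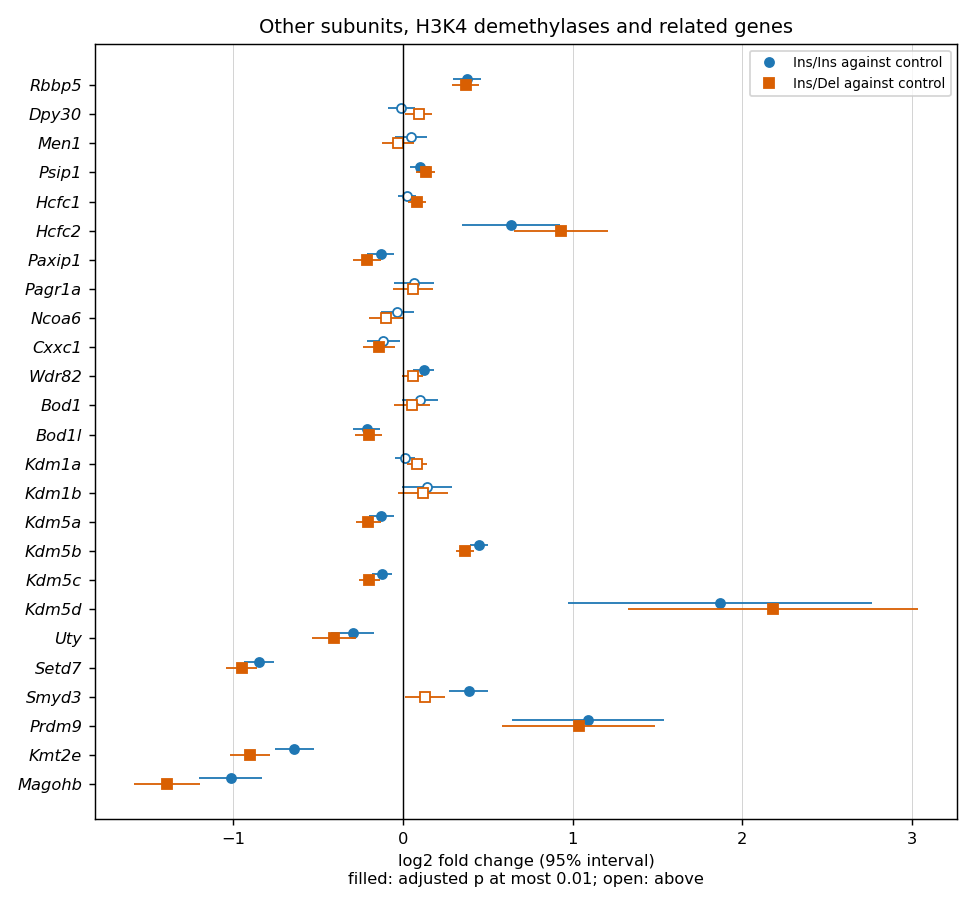
Log2 fold changes against the control (horizontal axis, with 95% intervals) of the 13 other complex subunits, 6 H3K4 demethylases, *Uty*, 4 other SET domain genes, and *Magohb* in Ins/Ins (circles) and Ins/Del (squares), where filled symbols passed the adjusted p-value limit of 0.01. *Setd7*, *Kmt2e*, and *Magohb* lie between -1.39 and -0.64, and *Kdm5d*, which has few reads, has the widest intervals.

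For *Kmt2c*, the most changed of the 10 genes, the tested genes with the most similar profile of log2 CPM over the 9 libraries were *Mlh3*, *Zscan4b*, and *Ddx47*, with Pearson correlations of 0.995, 0.994, and 0.993. The profile is mostly the difference between the lines, and 849 tested genes had a correlation above 0.95. The similarity is one of shape and not of size, since *Zscan4b* had log2 fold changes of 1.16 and 1.67 and *Ddx47* of 0.10 and 0.14. *Zscan4b* belongs to a family of near-identical genes, so its counts are uncertain.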

How the data were processed

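Total RNA of 9 ESC libraries was made into messenger RNA libraries (Kapa mRNA HyperPrep) and sequenced as paired-end reads. According to the methods and the submitters' processing notes, the authors aligned reads to mm10 with STAR 2.7.3 and counted reads over genes with HTSeq. The deposited files hold these counts as whole numbers for each gene symbol, not normalized. The HTSeq version, strand setting, and annotation are not given in the sources used here, so reads of overlapping genes may be shared. Groups came from the genotype labels.

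From the counts, edgeR 4.0.16 (R 4.3.3) computed TMM factors, removed low genes with filterByExpr (14125 of 25239 symbols kept), and fitted the quasi-likelihood model to all 9 libraries with 3 groups. P-values were adjusted by the Benjamini-Hochberg method over all tested genes, and the limit was 0.01, as in the study's DESeq2 test. The standard error is taken from the size of the log2 fold change and the F statistic of the test (size over root F). Positions, lengths, and exon overlaps are those of GENCODE M21 on GRCm38 (mm10), which held all 69 listed genes. Promoters are from RefSeq, where 6 of the 10 genes were matched, and figures and summaries were made in Python 3.11.15 with pandas 2.3.3.

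The 10 genes, the lists of related genes, and the markers were chosen with earlier results of these data known. Named genes are the 10 genes, *Rbbp4*, listed genes (with values for up to 4 per list with the largest mean change past the limit in both mutants, and for *Rbbp5*, *Dpy30*, *Uty*, and *Magohb*), and the 3 genes most correlated with the most changed member. *Hcfc1*, *Cxxc1*, *Wdr82*, *Psip1*, *Kdm1a*, and *Smyd3*, outside this rule for values, are given because their calls depended on the mutant or on single libraries, after their values were seen. The fit was tested on simulated counts. The alternatives were DESeq2 1.42.0, its size factors in edgeR, total-count scaling, all genes with a read, only the groups compared, a replicate block, a limit of 0.05, and each library left out in turn. The merged exon length was added after the data were seen.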

Additional observations from a re-analysis of the deposited data

Results flagged for a closer look

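The direct comparison of the mutants tests whether their effects against the shared control differ, and 10.8% of all tested genes passed it at an adjusted p-value of 0.01 by the quasi-likelihood test of edgeR (Benjamini-Hochberg adjusted). Among the chromatin genes described and *Rbbp4*, 8 passed. Of the 10 genes 2 passed, and of the 4 other SET domain genes 2. Of the 4 PRC2 genes 2 were higher and 1 was lower. None of the 13 other complex subunits or 6 H3K4 demethylases passed, nor did *Uty* or *Magohb*. *Kmt2c* (log2 difference of Ins/Del against Ins/Ins 0.19) and *Ash2l* (0.15) were higher in Ins/Del, as were *Ezh2* (0.12), *Eed* (0.15), and *Rbbp4* itself (0.89). *Smyd3* (-0.26), *Kmt2e* (-0.26), and *Ezh1* (-0.25) were lower in Ins/Del. *Kmt2c* and *Ash2l* kept this call under all 16 alternatives, with differences from 0.17 to 0.22 and from 0.14 to 0.17. Leaving out 1 library ended it for *Smyd3* without Ins/Ins replicate 1 (-0.20, adjusted p = 0.026). It also ended it for *Kmt2e* without Ins/Ins replicate 1 or 2 or Ins/Del replicate 3 (adjusted p = 0.0101, 0.0224, and 0.036). For *Ezh1* it was lost without Ins/Ins replicate 1 or Ins/Del replicate 2 (adjusted p = 0.0141 and 0.0318), and for *Ezh2* without Ins/Ins replicate 1 or 2 or any 1 Ins/Del replicate (adjusted p between 0.0131 and 0.0226). With DESeq2 *Ezh1* had an adjusted p of 0.0105. Of 25 tested cell type markers 9 passed. Of these, *Zfp42* (0.15), *Thy1* (0.34), *Sox7* (0.59), *Tubb3* (0.42), and *Kdr* (0.78) were higher in Ins/Del, and *Sox2* (-0.10), *Tfap2c* (-0.70), *Krt7* (-0.74), and *Pax6* (-1.31) were lower. *Zscan4b*, 1 of the 3 genes most alike to *Kmt2c*, was higher in Ins/Del (0.52).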

How the results depend on the processing

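Of 480 recomputed log2 fold changes of the 10 genes, 444 kept their direction and their side of the limit, 21 passed only under the alternative, and 15 changed sign, none of them called in either form. *Kmt2c*, *Wdr5*, *Ash2l*, *Kdm6a*, and *Kdm6b* kept their calls against the control under all 16 alternatives. With a limit of 0.05, 5 of the 10 genes were higher and 4 lower in Ins/Del, and 1 was lower in Ins/Del than in Ins/Ins, as it was with all genes with a read kept and with only the groups compared (1 each, against 0). With DESeq2, 1 of the other complex subunits was lower in Ins/Ins, against 2. With single libraries left out, the number of the 10 genes higher in Ins/Ins ranged from 3 to 5 (5 without control replicate 3), lower in Ins/Del from 2 to 4 (4 without control replicate 1), and lower in Ins/Del than in Ins/Ins from 0 to 1 (1 without control replicate 3). The number of other subunits and of H3K4 demethylases lower in Ins/Ins each ranged from 1 to 2. The sign changes lay near 0 on the log2 scale. Between the mutants, DESeq2 and its size factors gave 0.0040 and 0.0037 for *Kmt2a* and 0.0046 and 0.0042 for *Kdm6b*. Over the single libraries left out, the difference between the mutants ranged from -0.026 to 0.020 for *Kmt2a*, from -0.031 to 0.0087 for *Setd1a*, and from -0.057 to 0.023 for *Kdm6b*. In Ins/Ins against control the range was -0.042 to 0.019 for *Kmt2b* and -0.030 (without control replicate 1) to 0.113 (without control replicate 3) for *Kmt2d*. The causes were not tested. Deviations of libraries with the same replicate number had correlations from -0.0277 to 0.0559, against -0.0566 to 0.0619 for libraries with different numbers. Of 9 libraries, 4 correlated best with their own number. No clear pairing by number was seen, and these values cannot tell a weak pairing from none. A replicate block gave 8225, 8795, and 1499 called genes in the 3 comparisons, against 8252, 8829, and 1527 without it, and the same counts of the 10 genes called (3 higher and 2 lower in each mutant). With it *Cxxc1* did not pass in Ins/Del (adjusted p = 0.0116). Genes with few reads, such as *Kdm5d*, are limited by depth, and the number of libraries limits all intervals.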
